A study of Mus musculus with 8 samples.

Results

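The circadian clock genes described here were 10 genes of the molecular clock, Arntl (also written Bmal1), Clock, Per1, Per2, Per3, Cry1, Nr1d1, Nr1d2, Dbp and Ciart, chosen by name among the 53012 genes of an islet RNA-seq table. All 10 were found in the table and all 10 passed the filter on low counts, which left 15474 genes for testing. Islets came from 4 βIgf1rKD mice (M145, M146, M149 and M150), which carried Ins1-CreERT2+/- and Igf1r flox/flox and received tamoxifen, and from 4 βIgf1r mice (M148, M151, M152 and M153), which carried Igf1r flox/flox without Cre (Ins1-CreERT2-/-) and received corn oil. All were 17 months old, both sexes were present in each group without being marked per mouse, and the islets of each animal were kept separate. Tamoxifen was given at 0.075 mg/g on 5 days in a row, with islet isolation 7 days after the final dose. Cre, tamoxifen and recombination of Igf1r therefore differed together between the groups and cannot be told apart. Cre was driven by an insulin promoter, which the methods call the rat promoter whereas the genotype is written Ins1. The comparison asks how lowering Igf1r in the β-cells of old mice altered islet transcripts. A light and dark cycle of 12 h each is stated, but the hour at which each mouse's islets were collected is not given in the sources used here.

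The clock is a feedback loop of transcription that runs in most cells over about a day. ARNTL and CLOCK bind E-boxes as a pair and drive Per, Cry, Nr1d1, Nr1d2, Dbp and Ciart, whose PER, CRY and CIART products hold the pair back, while the nuclear receptors NR1D1 and NR1D2 (REV-ERBα and REV-ERBβ) repress Arntl through sites they share with the ROR receptors. Pancreatic islets have a clock of their own, which shapes insulin secretion over the day. Because members of the loop peak at different hours, a single time point gives 1 phase of each gene and not its rhythm.

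Nr1d1 was the 1 clock gene of 10 whose groups did not overlap, which also held for 344 of all genes tested (2.22%). It was lower in βIgf1rKD islets, at 27.9 ± 4.95 CPM (counts scaled to library size, mean ± SD, n = 4) against 37.6 ± 1.74 CPM in βIgf1r islets. The remaining 9 genes, including Nr1d2 with a like function and the activators Arntl and Clock, overlapped between the groups. No clock gene passed the adjusted threshold in the quasi-likelihood test of edgeR, adjusted by Benjamini-Hochberg over all genes tested, and neither did any other gene, so the count was 0 of 15474 (0%). At an unadjusted p under 0.05 the test gave 1 of the 10 clock genes against 637 of all genes (4.12%), and 292 of all genes (1.89%) were lower in βIgf1rKD islets like Nr1d1. DESeq2 gave 8 genes and limma-voom 1 gene at an adjusted p under 0.05, with 0 clock genes in either.

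Total counts per mouse lay between 21633925 and 42391106. Igf1r, the targeted gene, was at 53.6 ± 7.21 CPM in βIgf1r and 50.7 ± 4.996 CPM in βIgf1rKD islets. Its log2 fold change was -0.08 (SE 0.11, confidence interval -0.33 to 0.17, exact permutation p = 0.543). The paper reports reduced Igf1r mRNA in βIgf1rKD islets by PCR, in larger groups of mice, and reduced protein. An mRNA reduction as large as the reported one lies outside this interval and was not seen in these counts. The reason for this difference was not tested. A count over all exons of Igf1r cannot show the loss of the floxed exon 3 in β-cells, so it does not check the labels. Of the β-cell markers listed, 8 of 8 were present, and they took 16.2% to 22.4% of the counts in βIgf1r and 10.2% to 22.0% in βIgf1rKD mice. Their median log2 fold change was -0.07, with 3 higher and 5 lower, and 1 of them, the insulin gene Ins1, had an unadjusted p under 0.05 in edgeR. Ins1 had a log2 fold change of -0.92 without overlap, against -0.08 with overlap for the other insulin gene, Ins2. The genotype names Ins1 for the Cre, whose part in the Ins1 value was not tested. Marker genes of acinar cells, the exocrine cells around islets, took 2.44% to 17.8% and 5.06% to 20.3%, most of them genes of digestive enzymes. All 12 of these markers had higher means in βIgf1rKD islets with 0 at an unadjusted p under 0.05 in edgeR. Xist, a transcript of females, was at 402 CPM in M151 and at 2.04 to 6.71 CPM in the other 3 βIgf1r mice, and at 411, 270.1 and 338 CPM in M145, M146 and M150 against 1.22 CPM in M149 among the βIgf1rKD mice, so it was high in 1 of 4 and in 3 of 4 mice. In bulk samples, fewer cells of a type and less RNA per cell cannot be told apart.

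The sequences before 4 of the clock genes are shown as examples of windows with and without the letters of sites that clock factors bind. Each is the RefSeq window on GRCm38.p6 from 250 bases before to 50 bases from the start of a transcript, written 5′ to 3′ on the strand of the gene, for Arntl at chr7:113207261-113207560 (plus strand), for Per1 at chr11:69098699-69098998 (plus strand), for Nr1d1 at chr11:98775328-98775627 (minus strand) and for Ciart at chr3:95882179-95882478 (minus strand). Capitals mark the E-box CACGTG, the D-box TTANNTAA, which DBP and its relatives bind, and the half-site AGGTCA of the ROR and REV-ERB receptors, all searched on both strands.
Arntl: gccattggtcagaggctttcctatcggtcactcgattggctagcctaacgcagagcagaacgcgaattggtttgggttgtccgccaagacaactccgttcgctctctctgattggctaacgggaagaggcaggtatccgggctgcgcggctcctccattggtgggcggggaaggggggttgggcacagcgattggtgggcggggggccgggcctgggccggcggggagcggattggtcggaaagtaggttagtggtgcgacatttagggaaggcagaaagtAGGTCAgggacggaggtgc
Per1: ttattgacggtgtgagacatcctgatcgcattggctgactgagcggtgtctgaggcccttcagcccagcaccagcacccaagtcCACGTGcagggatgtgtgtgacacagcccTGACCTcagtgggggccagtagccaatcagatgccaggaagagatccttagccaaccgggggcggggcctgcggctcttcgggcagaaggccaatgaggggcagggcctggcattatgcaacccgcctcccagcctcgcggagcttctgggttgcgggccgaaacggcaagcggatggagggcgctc
Nr1d1: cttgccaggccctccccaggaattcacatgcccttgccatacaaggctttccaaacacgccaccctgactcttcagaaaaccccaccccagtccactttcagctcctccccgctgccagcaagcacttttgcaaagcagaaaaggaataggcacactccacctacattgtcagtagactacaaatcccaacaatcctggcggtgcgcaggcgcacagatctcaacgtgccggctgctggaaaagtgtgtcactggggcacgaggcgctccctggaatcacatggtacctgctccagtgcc
Ciart: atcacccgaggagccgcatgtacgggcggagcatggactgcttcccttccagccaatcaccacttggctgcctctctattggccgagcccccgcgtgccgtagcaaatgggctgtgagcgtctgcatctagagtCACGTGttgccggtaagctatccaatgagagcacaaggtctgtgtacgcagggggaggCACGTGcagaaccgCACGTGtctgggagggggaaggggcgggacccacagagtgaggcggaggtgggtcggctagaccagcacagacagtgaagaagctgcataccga
The Arntl window shown holds a ROR half-site near its end. The Per1 window shown holds an E-box 166 bases before the start and a ROR half-site, and the Ciart window 3 E-boxes. The Nr1d1 window holds none of these letters. Arntl and Per1 each have another window, not shown, in which none of them were found. A window of this length, searched for exact letters, cannot show that a gene lacks such sites.

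RefSeq windows were matched for 9 of the clock genes, Per2 having no entry, and some genes had several starts, which gave 13 windows of 300 bases. E-boxes were found in 3 of them, those of Per1, Ciart and Cry1, the last at 60 bases before the start. Of all 32851 windows in the table, 7.15% held an E-box. D-boxes were found in 1 window, that of Per3 with 2 of them, against 6% of all windows. ROR half-sites were found in 4, one each of Arntl, Clock, Per1 and Nr1d2, against 16.3% of all windows. Such matches describe the letters of these windows and not binding in islets.

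Compared per length, as mean CPM per kilobase of annotated exon over all 8 mice, the nuclear receptors were the most abundant clock transcripts, Nr1d2 at 11.04 ± 2.001 (SD) and Nr1d1 at 10.6 ± 2.02. The output factor Dbp followed at 8.13 ± 1.02. The middle of the order was held by Clock at 5.65 ± 0.612, Per1 at 5.34 ± 1.08, Cry1 at 5.27 ± 0.548 and Per2 at 3.99 ± 0.404. Arntl was at 2.22 ± 0.269, which put the activators of the loop apart, and the repressor genes Per3 at 0.976 ± 0.163 and Ciart at 0.651 ± 0.150 were the lowest. Neighbours in this order overlapped over the 8 mice in all but 3 steps, those from Dbp down to Clock, from Per2 to Arntl and from Arntl to Per3. Nr1d2 was above Nr1d1 in 5 of the 8 mice, and Per1 was above Cry1 in 3 of 8. The exon lengths are unions over annotated transcripts, between 2261 bases for Ciart and 13727 bases for Clock, so a level per kilobase also depends on which transcripts the islets use.

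**Figure D1:**
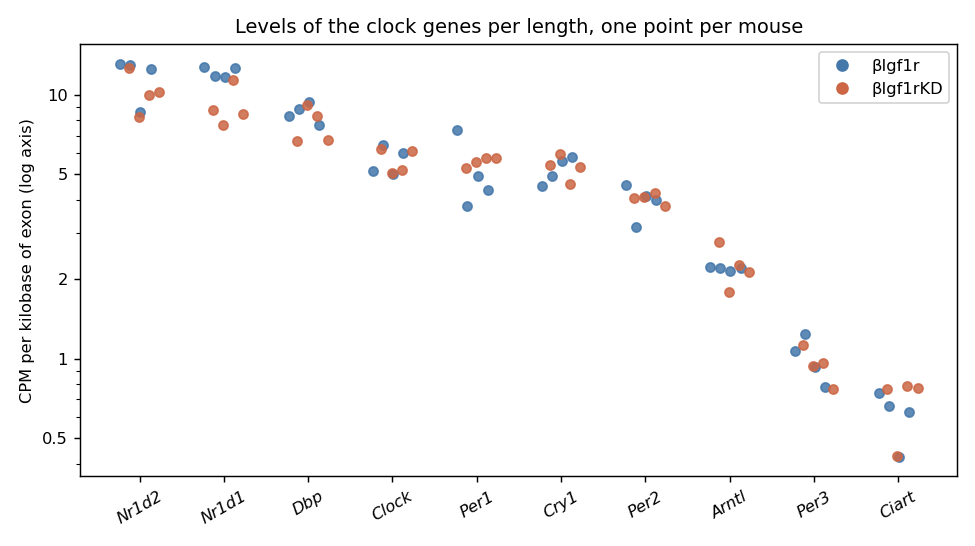
Level of each clock gene per length, in CPM per kilobase of exon on a log axis, with 1 point for each mouse, blue for βIgf1r and orange for βIgf1rKD. Nr1d2 and Nr1d1 share the top of the order, Dbp lies above Clock in all 8 mice, and Per3 and Ciart lie lowest.

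Arntl encodes the activator without which the loop stops. On GRCm38 it lies on the plus strand at chr7:113207465-113314126. In the βIgf1r mice, always given in the order M148, M151, M152 and M153, its level was 16.8, 16.6, 16.2 and 16.5 CPM. In the βIgf1rKD mice, in the order M145, M146, M149 and M150, it was 20.9, 13.5, 16.98 and 16.03 CPM. The βIgf1r mice thus lay close together, with an SD of 0.236 CPM, inside the range of the βIgf1rKD mice, of which M145 was the highest and M146 the lowest of all. The log2 fold change of βIgf1rKD against βIgf1r was 0.03 (SE 0.13, 95% interval -0.25 to 0.31), with an unadjusted p of 0.842 in edgeR and p = 0.8286 in an exact permutation test (two-sided) of the mice, which is the p given for the other clock genes as well. The adjusted p of every clock gene was 0.987 or above in edgeR. At the 349 to 630 counts of the βIgf1r mice, counting error alone is wider than their SD. Their closeness is therefore not read as a trait of the group. The difference in spread between the groups was not tested.

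Clock, the partner of Arntl in the activating pair, lies on the minus strand at chr5:76209868-76304792. It was at 70.7, 88.5, 68.5 and 82.8 CPM in βIgf1r and at 85.2, 69.1, 70.9 and 84.3 CPM in βIgf1rKD mice. Each group held a pair of lower and a pair of higher mice over the same range. On the log2 scale the fold change was -0.0042 (SE 0.11, interval -0.25 to 0.24, exact p = 0.971). Clock had the narrowest range of the clock genes, with 1.29-fold between its highest and lowest mouse, against a median of 1.52-fold over all genes tested.

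Per1 encodes a repressor of the pair that is also an immediate early gene, induced within an hour by many stimuli. It lies on the plus strand at chr11:69095217-69109960. It was at 41.4, 21.2, 27.7 and 24.4 CPM in βIgf1r mice and at 29.6, 31.3, 32.5 and 32.3 CPM in βIgf1rKD mice. The βIgf1rKD mice lay close together above 3 of the 4 βIgf1r mice, and M148 was the highest of all, which gave Per1 the widest range of the clock genes (1.95-fold). The log2 fold change was 0.13 (SE 0.18, interval -0.28 to 0.54, exact p = 0.40). The value depended on single βIgf1r mice in both directions. Without M148 it was 0.36 (unadjusted p of 0.00819 in edgeR) and the groups did not overlap, whereas without M151 it was 0.0090 and without M153 0.056. Fewer mice make a lack of overlap more likely by chance, and its share over all genes was not counted with a mouse left out. Of the 10 immediate early genes tested, 2 were highest in M148, Nr4a1 and Fosb, and the mean z-score of the list was 0.45 in M148 against 0.76 in M149, the highest. Their part in the Per1 level was not tested.

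Per2, the partner of Per1 in repression, lies on the minus strand at chr1:91415982-91459324. It was at 26.6, 18.5, 24.1 and 23.3 CPM in βIgf1r and at 23.7, 23.9, 24.9 and 22.1 CPM in βIgf1rKD mice. M148 was again the highest and M151 the lowest, as for Per1. The log2 fold change was 0.03 (SE 0.11, interval -0.22 to 0.28, exact p = 0.80). Per3, a period gene of lesser weight in the loop, lies on the minus strand at chr4:151003652-151044665 and was at 10.2, 11.9, 8.94 and 7.49 CPM in βIgf1r against 10.8, 9.03, 9.27 and 7.35 CPM in βIgf1rKD mice. The groups covered nearly the same range, and the log2 fold change was -0.09 (SE 0.17, interval -0.46 to 0.29, exact p = 0.714).

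Cry1 encodes the strongest repressor of the pair and lies on the minus strand at chr10:85131700-85185064. It was at 15.04, 16.4, 18.7 and 19.4 CPM in βIgf1r and at 18.1, 19.96, 15.4 and 17.8 CPM in βIgf1rKD mice, with the groups mixed over the whole range. The log2 fold change was 0.04 (SE 0.11, interval -0.22 to 0.29, exact p = 0.8286). Ciart (also called Chrono), a repressor that binds the pair at E-boxes, lies on the minus strand at chr3:95878503-95882251. It was at 1.68, 1.49, 0.961 and 1.42 CPM in βIgf1r and at 1.73, 0.964, 1.78 and 1.75 CPM in βIgf1rKD mice. M152 and M146, a mouse of each group, were the lowest and nearly equal, and the other mice lay together. The log2 fold change was 0.16 (SE 0.28, interval -0.46 to 0.78, exact p = 0.457), and with only 27 to 71 counts per mouse Ciart was the least precise of the clock genes. The value was 0.34 without M146, 0.27 without M148, 0.021 without M152, 0.11 without M145, 0.093 without M149 and 0.097 without M150.

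Nr1d1, the repressor of Arntl that lies on the minus strand at chr11:98767932-98775333, was at 39.3, 36.3, 35.8 and 38.8 CPM in βIgf1r mice. It was at 26.9, 23.6, 35.0 and 26.0 CPM in βIgf1rKD mice. All 4 βIgf1rKD mice were below all 4 βIgf1r mice, but M149 was close to the lowest of them, M152, and the gap was made by the other 3. Groups without overlap in log2 CPM were found for 344 of all genes tested (2.22%). The log2 fold change was -0.43 (SE 0.12, interval -0.69 to -0.17), with an unadjusted p of 0.00468 and an adjusted p of 0.987 in edgeR (Benjamini-Hochberg). By unadjusted p it was gene number 38 of all genes tested. The exact permutation test, which draws on the 70 ways of dividing the mice, gave p = 0.0286, the smallest that this design allows. Any gene whose groups do not overlap receives this p, so it restates the lack of overlap. Leaving out any 1 mouse kept the log2 fold change between -0.56 (without M149) and -0.36 (without M146).

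Ratios of counts within a library do not depend on how libraries are scaled. All ratios given in the text were chosen after the fold changes had been seen. Those with Nr1d1 as numerator restate its difference without adding support to it. The mean log2 ratio of Nr1d1 to the other 9 clock genes differed between βIgf1rKD and βIgf1r islets by -0.62 for Per1 to -0.25 for Nr1d2. Of these 9 ratios, 2 did not overlap between the groups, those to Arntl and to Per2. The log2 ratio of Nr1d1 to Arntl, the repressor to its target, was 1.18 ± 0.05 in βIgf1r and 0.73 ± 0.28 in βIgf1rKD mice (SD, n = 4), a difference of -0.45. For Per2 the difference was -0.49.

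Exons of Nr1d1 share 263 bases (8.55% of its exons) with exons of Thra, the thyroid hormone receptor α gene on the opposite strand, and the libraries were stranded whereas the strand setting of the counting is not given in the sources used here. Thra was at 42.5 ± 4.37 CPM in βIgf1r and 41.1 ± 5.91 CPM in βIgf1rKD islets, with a log2 fold change of -0.05 (SE 0.12, exact permutation p = 0.686). The log2 ratio of Nr1d1 to Thra differed by -0.39 between the groups, with overlap.

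**Figure D2:**
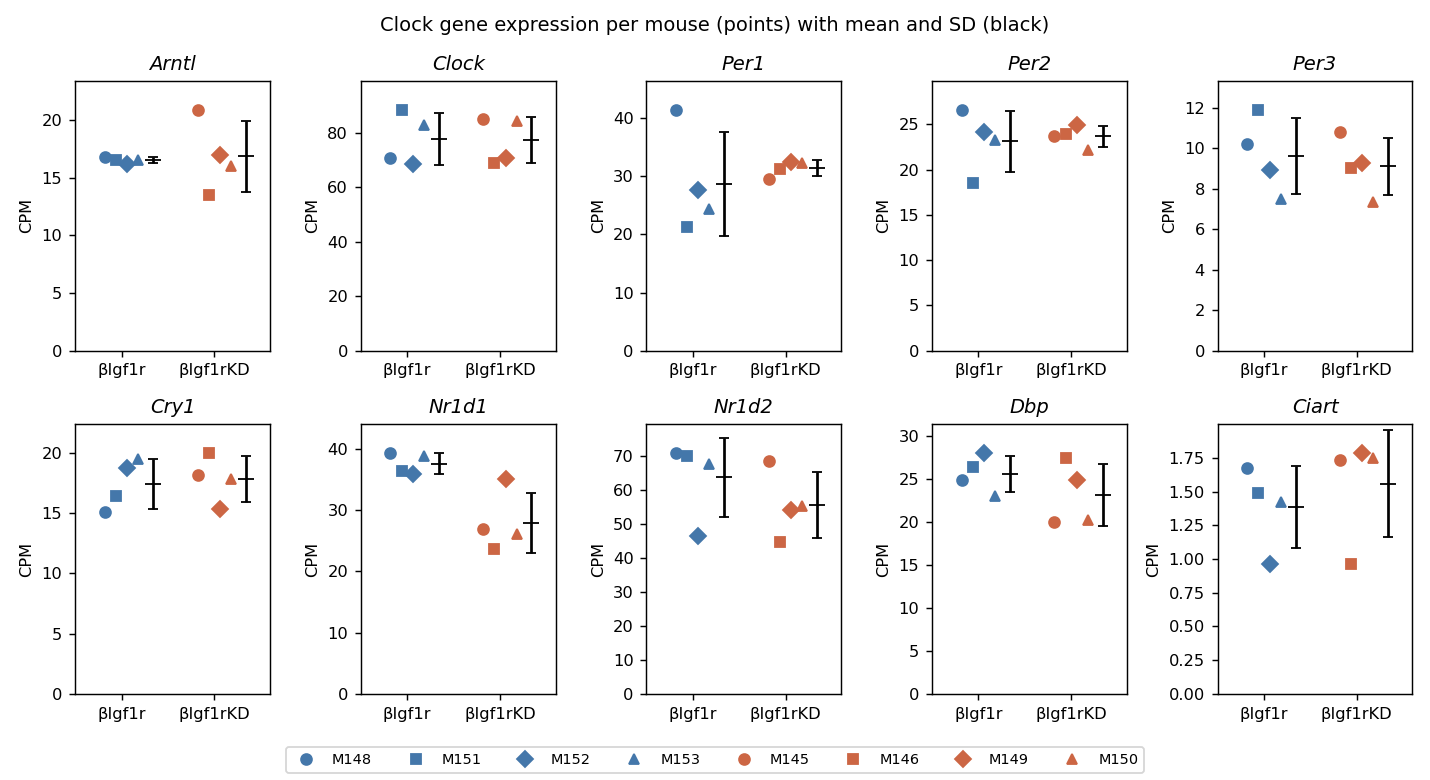
Level of each clock gene in every mouse, in CPM on an axis from 0, with the mean and SD of the 4 mice of each group in black, blue for βIgf1r and orange for βIgf1rKD. The groups do not overlap for Nr1d1, where the βIgf1rKD mice lie at 23.6 to 35.0 CPM and the βIgf1r mice at 35.8 to 39.3 CPM, and they overlap for the other 9 genes.

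Markers of endothelial cells were lower in βIgf1rKD islets, as Nr1d1 was. All 10 tested of 11 listed endothelial markers had lower means in βIgf1rKD islets, 4 of them at an unadjusted p under 0.05 in edgeR's test and 3 without overlap, and their median log2 fold change was -0.28 against 0.0080 over all genes tested. Their summed level was 391 to 511 CPM in βIgf1r and 358 to 400.0 CPM in βIgf1rKD mice. Within βIgf1rKD, M149 had both the highest Nr1d1 level and the highest endothelial sum. M149 was also the highest of all mice in the acinar, duct, macrophage and mesenchymal sums. The next highest endothelial sum in βIgf1rKD, 370 CPM, was that of M146, which had the lowest Nr1d1 level, 23.6 CPM. The mean log2 ratio of Nr1d1 to the 10 endothelial genes differed between the groups by -0.42 (Robo4) to -0.06 (Tek), with a median of -0.17, and the groups overlapped in all 10 ratios. With the mean z-score of the endothelial markers as a covariate, the log2 fold change of Nr1d1 was -0.27 and no longer passed (unadjusted p of 0.185 in edgeR). That score itself did not overlap between the groups, so the score and the group can hardly be separated in that fit. With an acinar score as a covariate the log2 fold change of Nr1d1 was -0.49 (unadjusted p of 0.00535), and with Xist it was -0.34 (unadjusted p of 0.00814). Within βIgf1rKD, Xist ran opposite to Nr1d1, since the 3 mice with high Xist were the 3 with the lowest Nr1d1, and M149, with low Xist, had 35.0 CPM of Nr1d1. Within βIgf1r this was not seen, as M151, with high Xist, lay inside the Nr1d1 range of the other mice. Among the mice with high Xist, Nr1d1 was at 36.3 CPM in the 1 βIgf1r mouse and at 23.6 to 26.9 CPM in the 3 βIgf1rKD mice, and among those with low Xist at 35.8 to 39.3 CPM in the 3 βIgf1r mice and at 35.0 CPM in the 1 βIgf1rKD mouse. With 1 mouse on a side, no test was made within these sets. The part of endothelial cells and of sex in the Nr1d1 difference was not tested beyond these values.

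**Figure D3:**
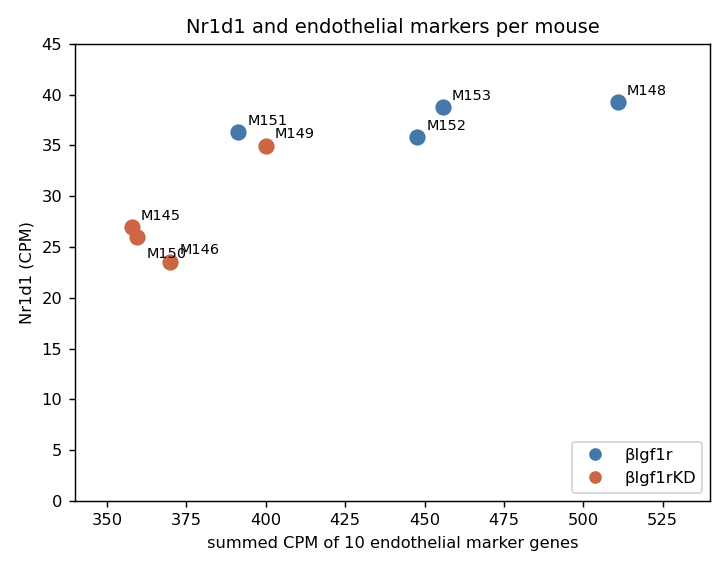
Nr1d1 level in CPM against the summed level of 10 endothelial marker genes in CPM, with 1 labelled point for each mouse, blue for βIgf1r and orange for βIgf1rKD. The 3 βIgf1rKD mice with the lowest endothelial sums are also the 3 mice with the lowest Nr1d1, and M149 lies beside the βIgf1r mouse M151 on both axes.

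Nr1d2 encodes the sister receptor of NR1D1, which represses the same targets, and lies on the minus strand at chr14:18204054-18239127. It was at 70.9, 69.95, 46.5 and 67.7 CPM in βIgf1r and at 68.4, 44.7, 54.1 and 55.3 CPM in βIgf1rKD mice. M152 stood far below the other βIgf1r mice, and M145 stood above the other βIgf1rKD mice. Nr1d2 had a log2 fold change of -0.20 (SE 0.16, interval -0.55 to 0.16, exact p = 0.314). Without M152 it was -0.32 (unadjusted p of 0.0349 in edgeR) and without M145 -0.31, whereas without M146 it was -0.11 (unadjusted p of 0.513).

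Dbp encodes an activator of D-box genes and is among the most direct outputs of the activating pair. It lies on the plus strand at chr7:45705088-45710203. It was at 24.8, 26.4, 27.98 and 23.0 CPM in βIgf1r mice and at 20.02, 27.4, 24.8 and 20.2 CPM in βIgf1rKD mice. M145 and M150 were below all others, and M146 and M149 lay among the βIgf1r mice. Dbp had a log2 fold change of -0.15 (SE 0.12, interval -0.41 to 0.12, exact p = 0.286). It was -0.24 without M146 (unadjusted p of 0.0572 in edgeR), -0.084 without M145, -0.086 without M150 and -0.100 without M152. Exons of Dbp share 539 bases (18.01% of its exons) with those of Sphk2, a sphingosine kinase gene on the opposite strand, which was at 42.1 ± 5.35 CPM in βIgf1r and 46.1 ± 5.72 CPM in βIgf1rKD islets (log2 fold change 0.13, SE 0.11, exact permutation p = 0.314). The log2 ratio of Dbp to Sphk2 differed by -0.28 between the groups, without overlap. This ratio joins the lower mean of Dbp to the higher mean of Sphk2, while Dbp by itself overlapped between the groups. It adds no support to a difference in Dbp. Arntl shares 33 exon bases (0.439%) with the antisense gene Gm45355, which did not pass the filter.

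Over the 10 clock genes, 5 had a higher and 5 a lower mean on the log2 scale in βIgf1rKD islets, and the median log2 fold change was 0.01. In 7 of the 10 the SE was larger than the fold change itself. The SD of log2 CPM within groups had a median of 0.18 over the clock genes, from 0.16 to 0.37, against a median of 0.20 over all genes tested. The 95% intervals show what 4 mice per group could resolve, the narrowest covering -0.25 to 0.24 (Clock) and the widest -0.46 to 0.78 (Ciart).

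The other genes of the loop were read from a list of 23, of which 22 were tested and Rorb was not. Of these 22, 0 had an unadjusted p under 0.05 in edgeR's, DESeq2's or limma-voom's test. They divided into 8 with a higher and 14 with a lower mean, and their median log2 fold change was -0.02. Tef, a D-box activator like Dbp, had the smallest p, at 53.4 ± 6.31 CPM in βIgf1r and 46.1 ± 4.21 CPM in βIgf1rKD islets (log2 fold change -0.21, SE 0.10, unadjusted p of 0.0613 in edgeR). Hlf, the remaining gene of that family, had the lowest log2 fold change of the list at -0.22 and Arntl2, a paralog of Arntl, the largest at 0.31 (SE 0.38). Each of the 3 D-box activators Dbp, Tef and Hlf thus had a lower mean in βIgf1rKD islets, and none of the differences passed the test.

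Of the 8 listed genes whose transcripts follow the clock in many tissues, all were tested and 0 had an unadjusted p under 0.05 in any of the 3 tools. Their median log2 fold change was 0.04, with 6 higher and 2 lower. Lonrf3, a ubiquitin ligase gene, had both the smallest p and the largest log2 fold change, 0.40 (SE 0.33, unadjusted p of 0.256 in edgeR). Signals that reset the clock were read from lists of their own. Among 10 tested of 11 immediate early genes, Jun, a subunit of the AP-1 factor, had an unadjusted p under 0.05 (log2 fold change 0.39, SE 0.16, unadjusted p of 0.0397 in edgeR, exact permutation p = 0.114). Atf3, a stress-induced factor, had the largest log2 fold change, 1.66 (SE 0.80, unadjusted p of 0.0655 in edgeR), with 8.58 CPM in M149 and at most 1.92 CPM in any other mouse. Among 4 tested of 5 glucocorticoid responsive genes none passed, and Fkbp5, a chaperone of the glucocorticoid receptor, had the smallest p and the largest log2 fold change, 0.20 (SE 0.13, unadjusted p of 0.149 in edgeR).

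**Figure D4:**
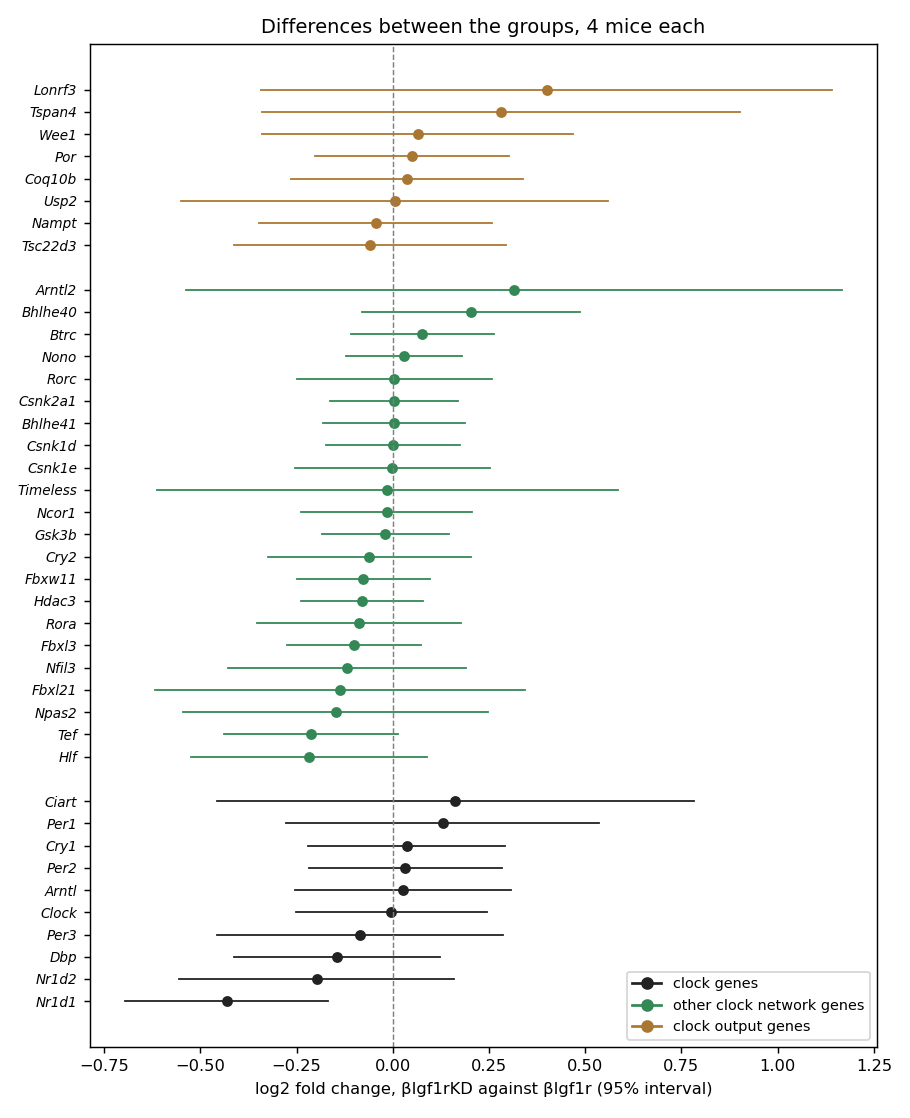
Log2 fold change of βIgf1rKD against βIgf1r islets with 95% intervals for the 10 clock genes (black), the 22 other genes of the loop (green) and the 8 clock output genes (brown), with a dashed line at 0. The interval of Nr1d1, from -0.69 to -0.17, is the one that leaves out 0.

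The relation of Arntl to the other clock genes was followed over the 8 mice, as 9 relations of log2 CPM. None had an adjusted p under 0.05 in the exact permutation test over 40320 pairings with Benjamini-Hochberg adjustment, and none had an unadjusted one. Pearson's r was highest with Nr1d2 at 0.63 (exact permutation p = 0.0712, adjusted 0.357, Spearman's rho 0.60, p = 0.132, adjusted 0.385) and with Ciart at 0.63 (p = 0.0944, adjusted 0.357, rho 0.55, p = 0.171, adjusted 0.385). It was lowest with Dbp at -0.61 (exact permutation p = 0.119, adjusted 0.357, rho -0.43, p = 0.299, adjusted 0.463). With its repressor Nr1d1 it was 0.19 (exact permutation p = 0.587, adjusted 0.755, rho 0.38, p = 0.360, adjusted 0.463). The mice farthest from the median of Arntl were M145 and M146, and without them r was 0.41 for Nr1d2, 0.42 for Ciart, 0.31 for Dbp, 0.64 for Nr1d1, -0.31 for Clock (0.47 with all mice), 0.47 for Per3 (0.36), -0.70 for Cry1 (-0.30), 0.21 for Per1 (-0.04) and 0.31 for Per2 (0.03). The sign with Dbp, with Clock and with Per1 thus turned without these 2 mice. The mice left lay at 16.03 to 16.98 CPM of Arntl, with 349 to 650 counts. That spread is narrower than counting error alone gives, so the r without M145 and M146 cannot show a relation or its lack. The r over all mice rest largely on M145 and M146.

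Over all 45 pairs of clock genes, 21 correlations were positive and 24 negative, with a median of -0.02. The highest was that of Per1 with Per2, at 0.81, and the lowest that of Clock with Per2, at -0.72. Arntl, Clock, Nr1d2 and Ciart were positively related to each other, with r from 0.47 to 0.69, and each was negatively related to Dbp, from -0.71 to -0.44. The sign between Arntl and Clock turned without M145 and M146, among mice whose Arntl levels hardly differed. This set of 4 was picked out after the values were seen, all pairs share the 8 libraries and the group means, and the values are given as a description. Nr1d1 and Nr1d2 had an r of 0.47.

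**Figure D5:**
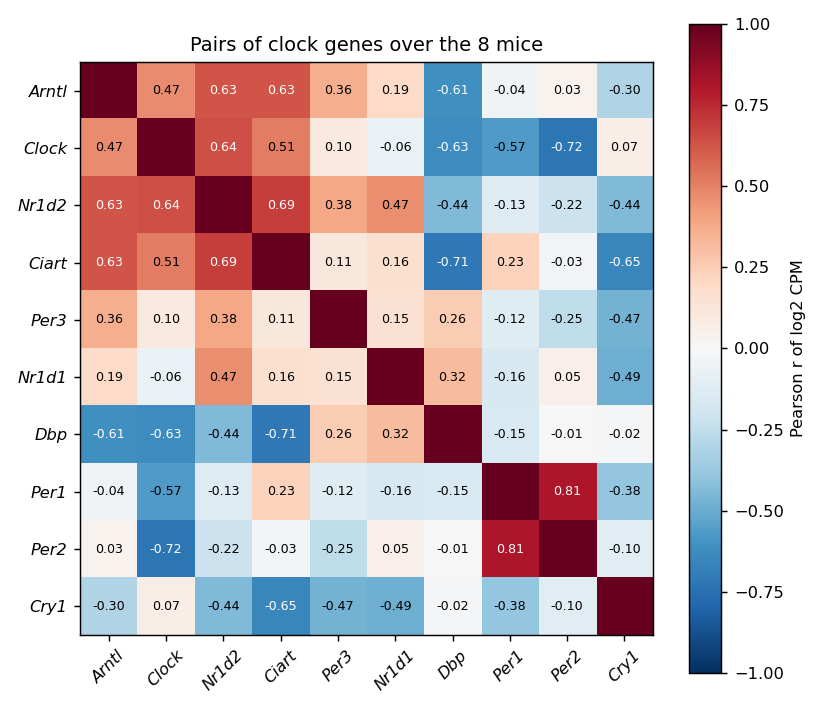
Pearson r of log2 CPM between each pair of clock genes over the 8 mice, with the value in each cell, red for positive and blue for negative. Per1 and Per2 form a positive pair at 0.81, and Arntl, Clock, Nr1d2 and Ciart a block with r from 0.47 to 0.69.

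Among all other genes tested, those with the pattern over the 8 mice most like that of Arntl, by Pearson's r of log2 CPM, were Snapc3 (0.95), Acot1, Tbc1d31, Map3k8 and Mat1a (0.93). The most opposite were Pip5k1a (-0.98), Spindoc, Rnf41, Zfp956 and Mfap1b (-0.96). For Dbp the most alike were Bmp6 (0.99), Dock6, Nsmf, Pcdhga2 and Gse1 (0.93), and the most opposite Wdr36 (-0.96), Azin1, Gskip, Tsen15 and Ankrd49 (-0.92). For Nr1d1, added after its values had been seen, the most alike were Slc5a5 (0.96), Tnfsf10, Ifit2, Ephx4 and Fgf1 (0.94) and the most opposite Mgme1 (-0.99), Zfp954, Nptx2, Slc16a13 and Ccdc25 (-0.93). Slc5a5 was low, at 0.49 CPM in βIgf1r and 0.22 CPM in βIgf1rKD islets. Its groups did not overlap either, so its r with Nr1d1 includes the group difference of both. All the neighbours named are the extremes of 15474 genes over only 8 mice and are given as a description.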

How the data were processed

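RNA-seq of islets was analysed in 8 mice, grouped by the sample labels. The authors deposited estimated counts per gene and mouse, not scaled between mice. Per the labels, the processing notes name fastp, kallisto and GRCm38, with versions and annotation release not given in the sources used here. Identifiers were matched to symbols for 51906 of 53012 genes (200 share a symbol). Coordinates are from GENCODE M21 on GRCm38. Counts were rounded, filtered with filterByExpr (minimum count 10, minimum total 15), scaled by TMM and tested with edgeR 4.0.16 in R 4.3.3 by the quasi-likelihood test with Benjamini-Hochberg adjustment. Log2 CPM used a prior count of 2. Intervals are 95% and follow from the F statistic. The p-values of edgeR weigh the difference between the groups against the spread between mice, estimated with information from all genes. Exact permutation p-values come from all ways of dividing or pairing the mice. Alternatives were DESeq2 1.42.0, limma-voom (limma 3.58.1), scaling by RLE, other filters, acinar, endothelial or Xist covariates and leaving out each mouse. Scripts were tested on simulated data. The clock genes, lists and tests were chosen with earlier results of these data known. Named by rule are all clock genes, of the 4 related lists (loop, output, immediate early, glucocorticoid) the genes with an unadjusted p under 0.05, the smallest p or the largest fold change, exon-sharing genes, and the 5 nearest neighbours in each direction for Arntl and Dbp. The neighbours of Nr1d1, Hlf, Nr4a1, Fosb and the cell type markers named were chosen after their values were seen.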

Additional observations from a re-analysis of the deposited data

Results flagged for a closer look

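Each clock gene was looked at in each group of 4 mice for a mouse far from the others, by the gap to its nearest neighbour as a share of the whole range on the log2 scale, against Dixon's 95% critical value. Of 20 such groups 2 held one, where about 1 in 20, here 1, is found by chance. Nr1d2 in M152 (βIgf1r, 46.5 CPM) had a gap of 0.889. Ciart in M146 (βIgf1rKD, 0.964 CPM) had a gap of 0.95.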

How the results depend on the processing

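Clock genes with an adjusted p under 0.05 stayed at 0 under all 16 alternatives. Over all genes that count was 8 with DESeq2 and 1 with limma-voom. The count of all genes at an unadjusted p under 0.05, 637, became 1098 with no filter, 392 with the acinar and 1143 with the Xist covariate, and 383 to 1114 when single mice were left out (383 without M148, 402 without M153, 960 without M146 and 1114 without M152). With the endothelial covariate 2 clock genes passed at an unadjusted p, Per1 (log2 fold change 0.81, unadjusted p of 0.000759 in edgeR) and Per2 (0.37, p of 0.0277) in place of Nr1d1, as did 1 other gene of the loop, Hlf, and 1 clock output gene, Coq10b. In that fit 580 of all 15474 genes passed. The endothelial score did not overlap between the groups, so score and group can hardly be separated for these genes either. It was highest in M148, which also had the highest Per1 and Per2. Leaving out single mice gave 1 to 2 clock genes (Per1 beside Nr1d1 without M148, Nr1d2 beside Nr1d1 without M152), 0 to 2 other genes of the loop (Nfil3 without M151, Tef without M152 or M153, Tef and Bhlhe40 without M146) and 1 to 2 clock genes without overlap. For the lack of overlap, the share over all genes was not counted with a mouse left out. Nr1d1 was lower under all 16 alternatives, with log2 fold changes from -0.56 to -0.27 and p from 9.8e-05 to 0.185, and missed 0.05 with the endothelial covariate alone. The sign changed in 14 of 160 recomputed clock gene fold changes. Arntl was -0.0041 with limma-voom, -0.056 with the acinar and -0.053 with the endothelial covariate, and -0.093 to 0.12 when mice were left out. Cry1 was -0.11 with the endothelial covariate and -0.029 to 0.10 when mice were left out, where Clock ranged from -0.060 to 0.065, Per2 from -0.062 to 0.11 and Per3 from -0.19 to 0.03. With the trend on the acinar score removed, 1 relation to Arntl had an adjusted exact permutation p under 0.05, Nr1d2 (r 0.88, p = 0.0292). The r of Arntl with Nr1d1 ranged from -0.45 to 0.82 when mice were left out. The cause was not tested in any of these. No paired analysis was possible because the mouse numbers are not shared between groups.

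With 4 mice per group, and with the hour of collection not given in the sources used here, no difference in a clock gene passed the adjusted threshold, and Ciart, at 27 to 71 counts, was limited by depth as well.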

Other observations

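Of the other cell types an islet preparation can hold, 7 of 8 duct markers were tested with 0 at an unadjusted p under 0.05 in edgeR, and none of 7 markers of other endocrine cells passed. Among 8 macrophage markers 1 did, C1qb, a complement gene, with a log2 fold change of 0.54 (SE 0.22, unadjusted p of 0.0312 in edgeR, exact permutation p = 0.0571). Among 8 mesenchymal markers, 4 higher and 4 lower with a median log2 fold change of 0.20, 1 did, Rgs5, a marker of the pericytes that wrap small vessels, with a log2 fold change of -0.31 (SE 0.12, unadjusted p of 0.0271 in edgeR, exact permutation p = 0.0857). The collagen gene Col1a1 had the highest log2 fold change of that list, 0.77 (SE 0.79), with 54.8 CPM in M149.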
